A study of Mus musculus with 4 samples.

Results

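The comparison set whole cells of the stria vascularis (SV) beside isolated nuclei of the same tissue, gene by gene. The SV is the epithelium of the cochlear lateral wall that secretes potassium into the endolymph. All 4 libraries came from CBA/J mice at postnatal day 30. The study describes the SV as wild type and unperturbed, and no treatment was named. Whole cells were released with trypsin and loaded in 3 captures, here called captures 1, 2 and 3. Nuclei were released with a mild detergent and loaded once. Each library pooled several mice. The labels and the study's methods give different numbers of mice, so none is stated here. Barcodes entered if they held at least 200 genes and if Malat1, an abundant RNA retained in the nucleus, made up at least 1% of their UMIs (unique molecules) in cells or at least 5% in nuclei. These limits kept 1452 of 3330 cell barcodes and 5561 of 11057 nucleus barcodes. Their raw UMIs were summed per library over 27860 genes that both gene lists hold, leaving out the mitochondrially encoded genes, and expressed as CPM, the usual scaling of a count to the total of its library. Because there was a single nucleus library, no test of the difference was possible. Each difference below is log2(CPM + 1) in cells minus that in nuclei, as mean ± SD over the 3 captures (n = 3), which all share the nucleus library. The study's methods describe a pool of mice for each capture, so the SD spans 3 pools and not single animals.

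An RNA is made in the nucleus from the whole length of its gene, introns included, spliced there, and most mRNAs are then exported to the cytoplasm and translated. A whole cell therefore holds both pools, whereas a nucleus holds unspliced and newly spliced RNA together with noncoding RNAs that are never exported. Stable mRNAs of housekeeping proteins accumulate in the cytoplasm, and long genes carry much intronic sequence in which the priming oligo of a 3′ library can bind.

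The counted UMIs were 1207234, 3441630 and 2715190 in captures 1 to 3 and 8784441 in the nuclei. The median barcode held 8713.5, 7223 and 5423 UMIs in the captures and 1452 in the nuclei. The libraries also differed in makeup. Barcodes led by markers of intermediate cells, the pigment cells of the SV, were 77.4 to 84.9% of kept cells and 33.6% of kept nuclei. Barcodes led by markers of marginal cells, the potassium-secreting layer, were 0.78 to 2.41% of cells and 12.3% of nuclei. Each other type led at most 3.11% of a capture and 4.1% of nuclei. The remaining barcodes, a larger share of nuclei than of cells, were led by none, so these shares do not give the full makeup. In sums over a library, fewer cells of a type and less RNA per cell cannot be told apart. The defining intermediate markers Dct and Tyr were abundant in every library, whereas Pmel was at 0 in the cells and Tyrp1 was below 1 CPM. Capture 3 stood apart in hemoglobin and neutrophil markers, the erythroid sum being 15390 CPM there against 248 and 474 CPM in captures 1 and 2 and 19599 CPM in nuclei. Capture 2 and the nuclei shared 5 kept barcodes and capture 3 and the nuclei shared 9.

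Of 9663 genes with a mean level of at least 10 CPM, 462 (4.78%) were at least 4-fold higher in cells than in nuclei in every capture, and 1013 (10.5%) were at least 4-fold higher in nuclei. At 2-fold the counts were 1775 (18.4%) and 2161 (22.4%). With the mitochondrially encoded genes kept in the total, 270 genes were 4-fold higher in cells and 1296 in nuclei. Malat1, which also chose the barcodes, was part of the total. Without it, 361 of 10096 genes were 4-fold higher in cells and 1284 in nuclei. With Malat1 at 1% in nuclei too, the counts were 376 and 944 of 9727 genes. The captures were far closer to each other than to the nuclei, since only 0.404 to 0.776% of the 9663 genes differed 4-fold between any 2 captures. Across genes, which are not independent replicates, Pearson's r of the log2 levels was 0.96 to 0.98 between captures and 0.37 to 0.39 between a capture and the nuclei. The median gene differed by −0.03, and the SD of a gene's difference over the captures had a median of 0.17. The limit on level used the mean of both sides, and 1162 of the 9663 genes reached 10 CPM in nuclei alone and 630 in cells alone. Over the 7871 genes with at least 10 CPM on both sides, 234 were 4-fold higher in cells and 379 in nuclei.

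**Figure D1:**
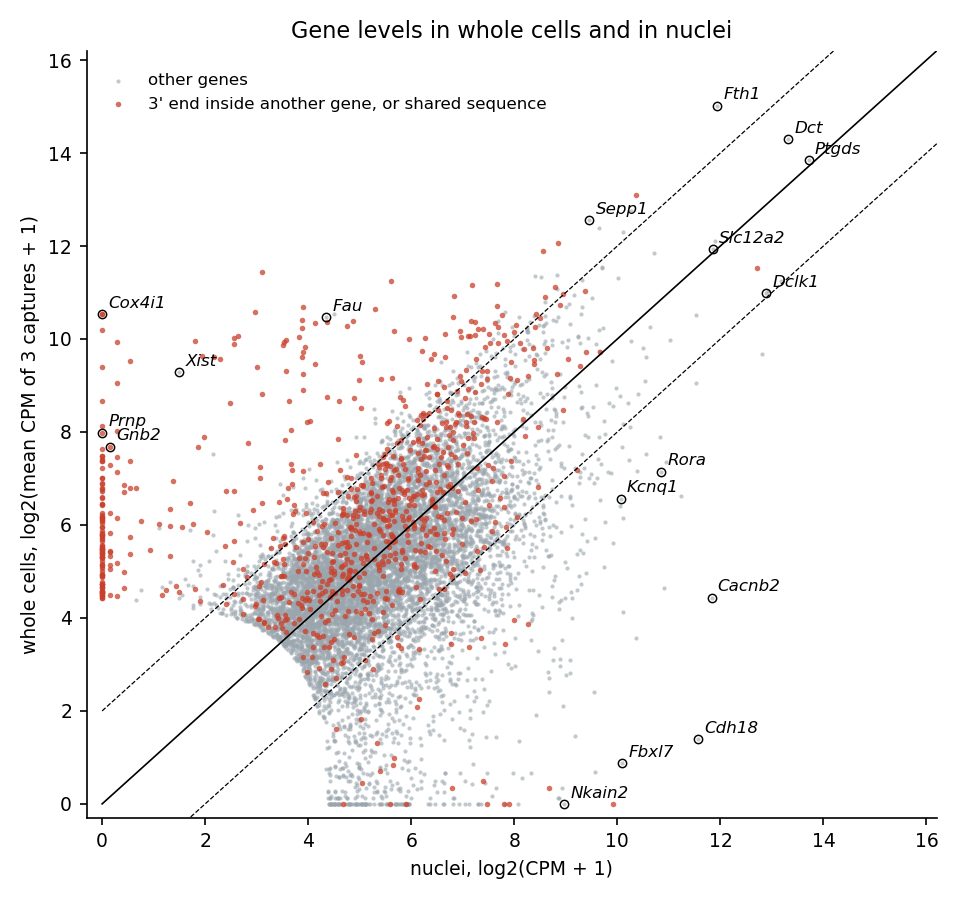
Each point is 1 of the 9663 genes apart from Malat1, with its level in nuclei on the x axis and the mean of the 3 cell captures on the y axis, both as log2(CPM + 1). The solid line marks equal levels and the dashed lines 4-fold differences. Red points are genes whose 3′ end lies inside another gene or shares sequence with a gene listed only for nuclei, and they make up most of the points far above the upper line.

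The 2 gene lists were not alike, and this bears on the genes higher in cells. The nuclei were counted over 48816 entries and the cells over 27998, and 20943 entries stood only in the nucleus list, many of them pseudogenes or small RNAs within other genes. Of the 9663 genes, 166 had the last 500 bases of their transcript inside an intron of another gene of the nucleus list on the same strand. Of these 166 genes, 98 (59.0%) had at most 3 UMIs in the nuclei, compared with 10 of 9364 genes (0.107%) that lie outside such a gene. Their median difference was 4.83, against −0.06 for the genes outside. A second group of 610 genes shared at least 5% of the 60-base stretches of their last 500 bases with an entry listed only for nuclei. The median difference was −0.09 without any shared stretch, 1.66 where 20 to 50% were shared and 3.48 where more than 50% were shared. Together these groups held 843 genes (8.73%). They made up 276 of the 462 genes (59.7%) higher in cells but only 33 of the 1013 (3.26%) higher in nuclei, and their levels in nuclei are uncertain. The genes that contain them can be affected in the other direction. Of the 9663 genes 78 (0.807%) held the last 500 bases of a gene with at least 10 CPM in cells, and 22 of these were among the 1013 (2.17%). The 843 genes and 6 genes that are not in the annotation were then left out. Of the remaining 8814 genes 186 (2.11%) were 4-fold higher in cells and 976 (11.1%) in nuclei. Without the containing genes as well 959 were higher in nuclei.

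Gnb2, a G protein subunit gene, is an example of such a gene, and how its reads were assigned was not tested. Its 3′ end lies within the gene model of Epo, the erythropoietin gene, on the minus strand of chromosome 5. Gnb2 was at 209, 202 and 204 CPM in the captures and at 1 UMI in the nuclei. Epo was at 0 in every capture and at 137 CPM in the nuclei. Cox4i1, a cytochrome c oxidase subunit gene, likewise stood at 1518, 1597 and 1345 CPM in cells and at 0 in nuclei, inside the model of Gm20388. Oat, which encodes ornithine aminotransferase, was at 301, 248 and 283 CPM in cells and at 0 in nuclei, inside the model of Fgfr2, a growth factor receptor gene that was itself at 12.9 to 19.1 CPM in cells and 1097 CPM in nuclei. No such gene can be read as absent from nuclei.

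**Figure D2:**
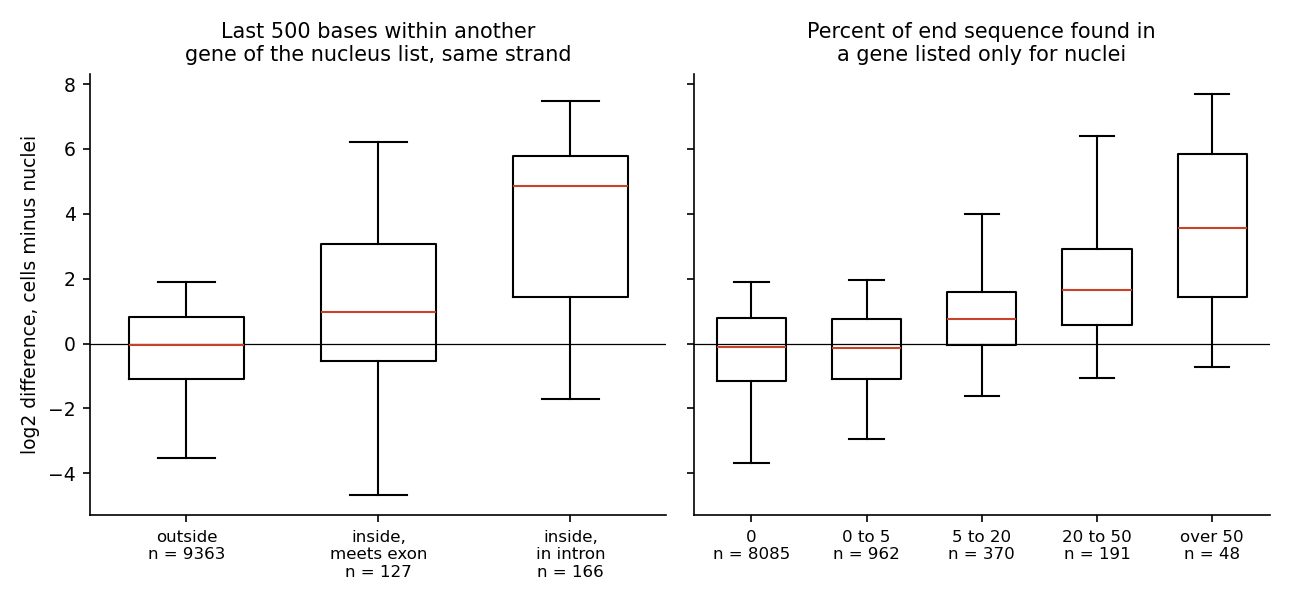
The y axis gives the log2 difference, cells minus nuclei. Genes are grouped on the left by where their last 500 bases lie and on the right by the percent of their end sequence found in a gene listed only for nuclei. Boxes span the quartiles with the median in red, and whiskers reach the 5th and 95th percentiles. The medians climb from −0.06 outside other genes to 4.83 inside an intron, and to 3.48 where more than 50% of the end sequence is shared.

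The ribosomal protein genes of the cytosol, whose many processed pseudogenes carry near copies of their coding sequence, show the shared sequence itself. The last 60 coding bases of 3 of them are given here from the mm10 sequence, and the closest copy is given where it differs by a single base, in capitals.
Rps29, chr12:69157722-69159186, minus strand: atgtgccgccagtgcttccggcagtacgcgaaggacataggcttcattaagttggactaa
Rps6, chr4:86854660-86857412, minus strand: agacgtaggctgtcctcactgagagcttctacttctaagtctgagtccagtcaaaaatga
Rps27, chr3:90212522-90213651, minus strand: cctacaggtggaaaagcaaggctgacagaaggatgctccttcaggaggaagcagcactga
Gm4525, closest copy of Rps27: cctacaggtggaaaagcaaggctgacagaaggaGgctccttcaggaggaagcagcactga

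For Rps29 the identical 60 bases occur in Gm14303, an entry listed only for nuclei, which held 4280 nucleus UMIs against 4047 for Rps29 itself. For Rps6 they occur in Rps6-ps4, with 143 nucleus UMIs against 22 for Rps6. The closest copy of Rps27 took 0 UMIs although Rps27 stood at only 7.63 CPM in nuclei. In all, 47 of 79 such genes had an identical copy listed only for nuclei, with a median difference of 4.51, and 32 had none, with a median of 3.15. The end searched was that of the longest annotated coding sequence of each gene. Copies of other coding ends were not counted, so some of the 32 may have one.

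Genes were ordered by their genomic span, the distance from start to end with introns, using the 8814 genes without such shared bases or sequence. The median difference was 0.89 ± 0.04 for genes under 5 kb (737 genes), 0.64 ± 0.02 for 5 to 10 kb and 0.41 ± 0.01 for 10 to 20 kb. It was −0.02 ± 0.01 for 20 to 50 kb, −0.67 ± 0.01 for 50 to 100 kb, −1.30 ± 0.03 for 100 to 200 kb and −2.66 ± 0.06 above 200 kb (621 genes). Thus the shortest genes were higher in cells, genes of 20 to 50 kb were near level, and the longest were higher in nuclei. Whether introns were counted alike on both sides is not given, so the part of the counting in this order was not tested. The share of genes at least 4-fold higher in nuclei in every capture was 1.76% under 5 kb and 60.4% above 200 kb. Genes entered on the mean level of both sides, so a gene could pass through the nuclei alone. Over the 388 genes above 200 kb with at least 10 CPM on both sides, the median was −2.02 and the share 43.8%. Under 5 kb these values were 0.85 and 0.65% over 613 genes. Genes above 200 kb carried 3.03% of the counted UMIs in cells, as the mean of the captures, and 14.3% in nuclei, and genes under 5 kb carried 15.9% and 8.77%. Among barcodes led by intermediate markers the medians went from 0.90 under 5 kb to −2.48 above 200 kb, so the order was also present among them. Doublets were not removed, so these barcodes need not all be single cells or nuclei of this type.

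**Figure D3:**
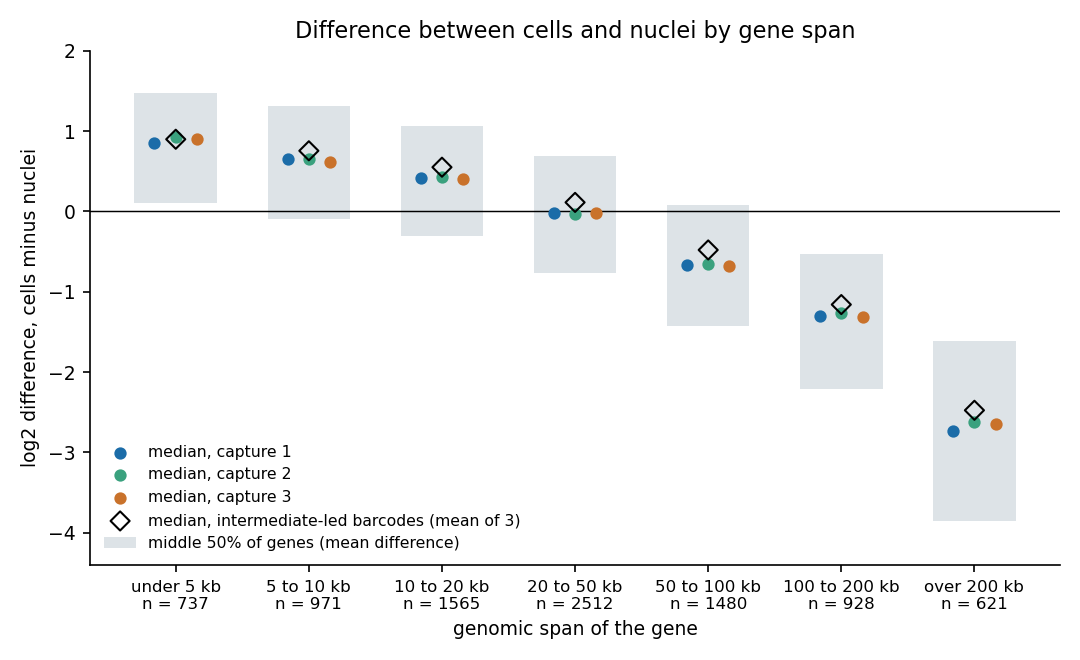
The y axis gives the log2 difference, cells minus nuclei, for 7 classes of genomic span on the x axis, without genes of shared bases or sequence. Filled points are the medians in each capture, diamonds the medians among barcodes led by intermediate markers, and grey bars the middle 50% of genes. The medians step down from 0.89 under 5 kb to −2.66 above 200 kb. With at least 10 CPM on both sides, not shown, they were 0.85 and −2.02.

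Other measures of size also ran from cells towards nuclei between their lowest and highest classes. By summed intron length the median was 1.07 for 158 genes with no intron and −1.92 for introns above 100 kb. By exon length it was 0.48 under 1 kb, 0.64 at 1 to 2 kb and −0.84 above 8 kb. Among genes spanning more than 200 kb, however, the median rose with exon length, from −4.87 at 1 to 2 kb (9 genes) to −2.44 above 8 kb (390 genes). The 9 genes together held 51.8 CPM in cells and 1177 CPM in nuclei, so some passed the limit on level through the nuclei alone. This rise was not examined with at least 10 CPM on both sides. By protein length it was 1.42 for proteins under 100 residues and −0.81 above 800 residues. By exon number it was 1.22 for 115 genes with 1 exon and −0.85 above 20 exons. The median over all 9663 genes shifted to −0.26 when Malat1 was left out of the total and to −0.44 when the mitochondrially encoded genes were kept in it, and every difference moves by about that amount, so differences nearer to 0 than this can change sign.

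Cytosolic ribosomal proteins formed the group with the highest median in cells. All 79 tested genes were at least 2-fold higher in every capture (100%, beside 18.4% of all genes) and 74 at least 4-fold (93.7%, beside 4.78%). The median difference was 3.83 ± 0.06, or 2.96 beside the median of all genes of the same span class. Together they were 8.54, 9.18 and 10.2% of the counted UMIs in captures 1 to 3 and 0.811% in nuclei, an 11.5 ± 1.06-fold difference. When the 103605 nucleus UMIs of all processed pseudogenes listed only for nuclei were added to them, the nucleus share was 1.99% and the difference 4.68 ± 0.43-fold. These pseudogenes need not all be copies of ribosomal protein genes, so the latter value is not a corrected one. Only 6 genes had no shared bases or sequence, with a median of 2.28, or 1.49 beside such genes of their span classes. At least 4-fold higher were 5 of the 6 (83.3%, beside 2.11% of all such genes). Of these, Rpl41, the smallest ribosomal protein, stood at 4619, 5007 and 5569 CPM in cells and 1102 CPM in nuclei, a difference of 2.20 ± 0.14. Rps3 stood at 812, 889 and 972 CPM against 218 CPM (2.02 ± 0.13). Every capture lay above the single nucleus library for both genes, as it did for all 79 genes of the list. Fau and Rps21 differed by 6.12 ± 0.15 and 6.04 ± 0.07, although no shared sequence was found for Fau, and for Rps21 only 3.44% of the stretches were shared.

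Subunits of the respiratory chain that are encoded in the nucleus were also higher in cells. Of 79 genes 42 (53.2%, beside 18.4% of all genes) were at least 2-fold higher in every capture. At least 4-fold higher were 10 (12.7%, beside 4.78%), and 0 were 2-fold higher in nuclei. Over the 60 genes without shared bases or sequence 28 were 2-fold higher in cells (46.7%, beside 15.3% of all such genes). Only 2 of the 60 were 4-fold higher (3.33%, beside 2.11%). The median was 1.15 ± 0.10 (1.04 over 60 genes without shared bases or sequence). Beside their span classes these genes lay at 0.49. Cox8a, a small subunit of cytochrome c oxidase, stood at 2989, 2921 and 2983 CPM in cells and 832 CPM in nuclei (1.83 ± 0.02). Atp5e, the epsilon subunit of the ATP synthase, stood at 1752, 1777 and 1787 CPM against 387 CPM (2.19 ± 0.01). Cox7a2 differed by 1.69 ± 0.08 and Uqcr11, a subunit of complex III, by 1.58 ± 0.07. The 71 mitochondrial ribosomal proteins lay lower, with a median of 0.84, or 0.10 beside their span classes. Of these, 28 genes (39.4%, beside 18.4% of all genes) were 2-fold higher in cells and 2 (2.82%, beside 22.4%) in nuclei.

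Translation factors had a median of 0.80, or 0.57 beside their span classes. Of 61 genes 20 were 2-fold higher in cells (32.8%, beside 18.4% of all genes) and 6 in nuclei (9.84%, beside 22.4%). Eef2, which moves the ribosome along the mRNA, stood at 909, 838 and 826 CPM in cells and 242 CPM in nuclei (1.82 ± 0.07). Eif4g2, an initiation factor, stood at 533, 543 and 569 CPM against 92.7 CPM (2.55 ± 0.05). In the endoplasmic reticulum list 13 of 33 genes were 2-fold higher in cells (39.4%, beside 18.4%) and 0 in nuclei. Its median was 0.89, or 0.68 beside the span classes of its genes. The folding chaperones Calr and Canx differed by 1.58 ± 0.08 and 1.33 ± 0.01, and Ost4, a small subunit of the oligosaccharyl transferase, by 2.84 ± 0.03. Proteasome subunits were nearer to level, with a median of 0.57, or 0.03 beside their span classes. Of 35 genes 5 were 2-fold higher in cells (14.3%), below the background of 18.4%.

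Redox and metal-binding proteins were among the groups higher in cells. Fth1, the heavy chain of the iron store ferritin, stood at 38155, 28026 and 33444 CPM in cells and at 3912 CPM in nuclei, 8.49-fold lower. Sepp1, the secreted selenium carrier selenoprotein P, stood at 5677, 5959 and 6516 CPM against 701 CPM (3.11 ± 0.10). Mt1, a metallothionein, stood at 1266, 1020 and 1496 CPM against 380 CPM (1.71 ± 0.28). Over the list 16 of 24 genes were 2-fold higher in cells (66.7%, beside 18.4% of all genes) and 0 in nuclei. The median was 1.36, or 0.75 beside the span classes of its genes. The actin, tubulin and thymosin list had a median of 1.57, or 1.02 beside the span classes of its genes. In it 19 of 29 genes (65.5%) were 2-fold higher in cells. Actb, the cytoplasmic actin, stood at 1767, 2223 and 2499 CPM against 456 CPM (2.23 ± 0.25), and Tmsb4x, which binds actin monomers, differed by 1.32 ± 0.46, being highest in capture 3. Of 15 glycolytic enzymes 8 (53.3%) were 2-fold higher in cells, among them Aldoa (1.73 ± 0.09) and Tpi1 (1.98 ± 0.12). Beside their span classes the 15 genes lay at 0.98. Of 22 lysosomal genes 8 were 2-fold higher in cells (36.4%) and 1 in nuclei (4.55%, beside 22.4% of all genes). Beside their span classes the 22 genes lay at 0.67. Ctsb, a cysteine protease, differed by 2.10 ± 0.19.

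**Figure D4:**
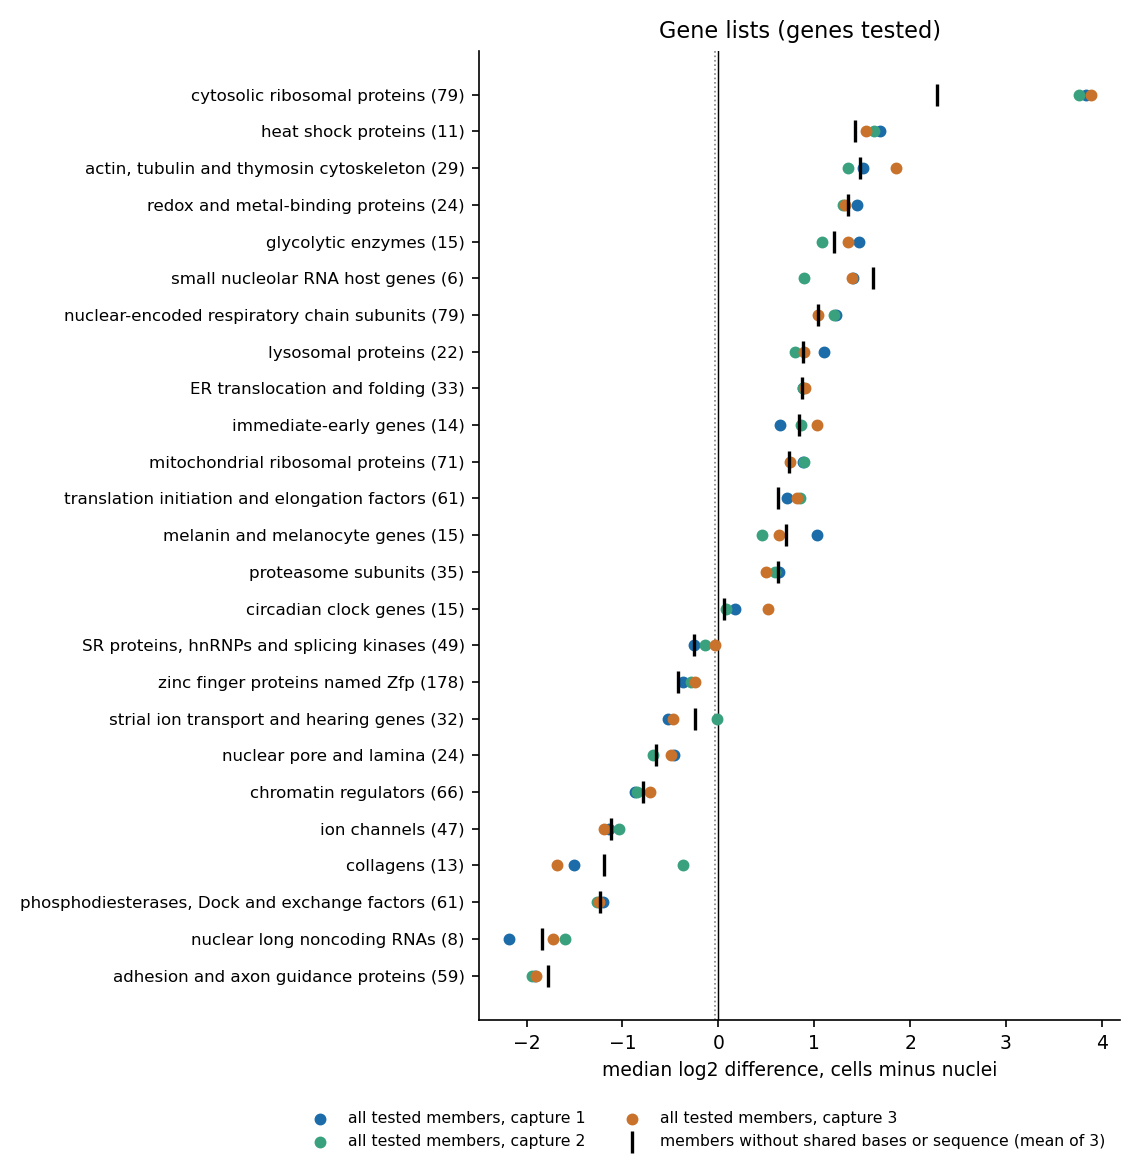
The x axis gives the median log2 difference, cells minus nuclei, of each of 25 gene lists, with the number of tested genes in brackets. Coloured points are the 3 captures, black bars the median of members without shared bases or sequence, and the dotted line the median of all genes (−0.03). Cytosolic ribosomal proteins lie at the upper end (3.83, or 2.28 without shared members) and adhesion and axon guidance proteins at the lower end (−1.92).

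Genes of nuclear proteins were not uniformly higher in nuclei. mRNAs of nuclear proteins are translated in the cytoplasm like any others. The splicing list, with SR proteins, hnRNPs and splicing kinases, had a median of −0.14, with 9 of 49 genes 2-fold higher in cells, the same share as over all genes (18.4%), and 6 in nuclei (12.2%, beside 22.4%). Rbm39, a splicing factor, stood at 416, 449 and 438 CPM in cells and 1058 CPM in nuclei (−1.28 ± 0.06), whereas Hnrnpa2b1 was higher in cells (1.09 ± 0.08). Of 66 chromatin regulators 21 were 2-fold higher in nuclei (31.8%, beside 22.4%) and 1 in cells (1.52%, beside 18.4%), with a median of −0.81. Their genes are long, with a median span of 79.2 kb, and beside the median of their own span classes they lay at −0.08. Baz2b stood at 64.6, 66.2 and 74.8 CPM in cells and 386 CPM in nuclei (−2.48 ± 0.11), and the histone methyltransferase Nsd1 differed by −2.29 ± 0.17. Among pore and lamina genes Nup98 differed by −4.25 ± 0.19 and Lmna, the lamin A gene, by 0.88 ± 0.12. The zinc finger genes named Zfp had a median of −0.30, with 49 of 178 genes 2-fold higher in nuclei, a share of 27.5% beside the background of 22.4%.

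Adhesion and axon guidance proteins formed the group with the lowest median. Of 59 genes 34 were at least 2-fold higher in nuclei (57.6%, beside 22.4% of all genes) and 26 at least 4-fold, and the median was −1.92 ± 0.02. Their median span was 220 kb, and relative to their span classes they lay at −0.24. With only genes without shared bases or sequence on both sides of that comparison, 58 members lay at −0.10. Of the 59 genes 22 were below 10 CPM in cells and passed the limit on level through the nuclei alone. Over the 34 genes with at least 10 CPM on both sides the median was −0.62, with 8 genes 4-fold higher in nuclei. Slit3, a secreted guidance ligand, stood at 4.14, 4.65 and 4.05 CPM in cells and 748 CPM in nuclei (−7.15 ± 0.09). Its receptor Robo1 stood at 52.2, 52.3 and 55.2 CPM against 332 CPM (−2.62 ± 0.05), and the netrin receptor Unc5c at 9.11, 10.2 and 8.47 CPM against 436 CPM (−5.42 ± 0.12). Not all members went this way. Nrp2, a semaphorin co-receptor, stood at 811, 792 and 802 CPM in cells and 348 CPM in nuclei (1.20 ± 0.02), and Cdh1, the epithelial cadherin, differed by 0.63 ± 0.06.

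Phosphodiesterases, Dock proteins and exchange factors, which shape cyclic nucleotide and small GTPase signals, had a median of −1.24, with 33 of 61 genes 2-fold higher in nuclei (54.1%, beside 22.4% of all genes) and 2 in cells. Beside the median of their span classes they lay at −0.03. Pde4d, a cyclic AMP phosphodiesterase whose gene spans 1504 kb, stood at 91.1, 106 and 96.1 CPM in cells and 2414 CPM in nuclei (−4.61 ± 0.11), and it differed by −4.58 ± 0.17 among intermediate-led barcodes. Pde4b differed by −4.45 ± 0.35. Of 47 ion channel genes 24 were 2-fold higher in nuclei (51.1%, beside 22.4%) and 5 in cells (10.6%, beside 18.4%). Their median was −1.12, or −0.24 beside their span classes. None had shared bases or sequence, and beside the genes of their span classes that had none either they lay at −0.13. Of these 47 genes 12 were below 10 CPM in cells. Cacna1d, a calcium channel gene of 452 kb, stood at 29.8, 23.8 and 22.8 CPM in cells and 628 CPM in nuclei (−4.58 ± 0.20).

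Noncoding RNAs leaned to the nuclei, with exceptions, but many passed the limit on level through the nuclei alone. Of 123 long intergenic noncoding RNAs 56 were at least 4-fold higher in nuclei (45.5%, beside 10.5% of all genes) and 9 in cells (7.32%, beside 4.78%). Their median was −1.75, and 60 of the 123 were below 10 CPM in cells. Of 134 antisense genes 88 were at least 4-fold higher in nuclei (65.7%) and 2 in cells (1.49%). Their median was −4.23, and 92 of the 134 were below 10 CPM in cells. With at least 10 CPM on both sides the median was −0.36 for 50 intergenic and −0.52 for 38 antisense genes. Of the 134 antisense genes 133 overlap a gene on the opposite strand. The study names Cell Ranger with default settings but does not spell out the use of strand, so the split of reads between such a gene and its partner is uncertain. Among 8 tested nuclear long noncoding RNAs the median was −1.84 ± 0.31, and −0.34 ± 0.60 for the 4 with at least 10 CPM on both sides. Kcnq1ot1, the imprinted antisense RNA of the Kcnq1 locus, stood at 166, 178 and 160 CPM in cells and 1204 CPM in nuclei (−2.84 ± 0.08), and since it lies within Kcnq1 on the opposite strand the same limit holds for both. Pvt1 stood at 4.14, 2.03 and 2.58 CPM against 121 CPM (−4.99 ± 0.39), and Airn, another imprinted antisense RNA, differed by −4.65 ± 0.39. Neat1, the scaffold of nuclear paraspeckles, differed less, with 1011, 918 and 775 CPM in cells and 1436 CPM in nuclei (−0.68 ± 0.19). The small nucleolar RNA host genes lay on the other side (median 1.23, or 0.16 beside their span classes), among them Snhg18 (2.36 ± 0.12).

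Xist stood farthest on the cell side of the 8 nuclear long noncoding RNAs. Of these, 2 (25%, beside 18.4% of all genes) were 2-fold higher in cells and 4 (50%, beside 22.4%) in nuclei. Xist RNA coats the inactive X chromosome of female cells and stays in the nucleus. It nevertheless stood at 316, 704 and 859 CPM in the captures and at 1.82 CPM in the nuclei, on 16 UMIs. It also differed by 7.07 ± 0.75 among intermediate-led barcodes. The Y chromosome genes Ddx3y, Eif2s3y, Uty and Kdm5d were detected in every library and stood higher in nuclei, while Erdr1, which the annotation also places on Y, differed by 0.58 ± 0.14 towards cells. Ddx3y, an RNA helicase gene, stood at 88.6, 58.1 and 46.8 CPM in cells and 163 CPM in nuclei, and Eif2s3y, an initiation factor gene, at 52.2, 36.6 and 27.6 CPM against 131 CPM. The labels name no sex. Tsix, which overlaps Xist on the opposite strand, was at 3, 22 and 31 UMIs in the captures and 0 in the nuclei. The part of the animals' sex or of the gene lists in the Xist difference was not tested.

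Genes of strial ion transport and hearing stood on both sides. Over the 32 genes of the list, 7 were 2-fold higher in cells (21.9%, beside 18.4% of all genes) and 10 in nuclei (31.3%, beside 22.4%). The marginal-cell markers Kcnq1, Kcne1, Esrrb and Bsnd, all in this list, stood higher in nuclei, beside the marginal marker sum of 557 to 805 CPM in cells and 3228 CPM in nuclei. Kcnq1, the potassium channel through which marginal cells secrete, stood at 114, 92.1 and 75.1 CPM in cells and 1070 CPM in nuclei (−3.52 ± 0.30), with −2.11 ± 0.30 among intermediate-led barcodes. Its partner subunit Kcne1, a gene of 13.5 kb, differed by −0.81 ± 0.29, and Esrrb, a nuclear receptor of marginal cells, by −2.67 ± 0.29. Lrp2, the endocytic receptor megalin, stood at 572, 618 and 409 CPM against 2939 CPM (−2.48 ± 0.32).

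Kcnj10, the potassium channel of intermediate cells, stood at 3087, 2338 and 2332 CPM in cells and 366 CPM in nuclei (2.80 ± 0.23). Among intermediate-led barcodes it still differed by 2.02 ± 0.19. The gap junction genes Gjb2 and Gjb6, whose connexins couple intermediate, basal and fibrocyte cells, differed by 2.67 ± 0.36 and 2.37 ± 0.24. Among marginal-led barcodes, only 17 of them cells, Gjb2 turned to −2.18 ± 2.82. The beta subunits of the sodium pump did not move together. Atp1b1 stood at 7153, 6524 and 6898 CPM against 1227 CPM (2.48 ± 0.07), whereas Atp1b2 differed by −0.32 ± 0.24. Atp1b1 differed by 1.62 ± 0.06 among intermediate-led and by −0.21 ± 0.31 among marginal-led barcodes. Slc12a2, the sodium-potassium-chloride cotransporter of marginal cells, was near level, unlike the marginal markers above. It stood at 3741, 3968 and 4013 CPM in cells and 3704 CPM in nuclei (0.08 ± 0.05).

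Pigment cell genes gave other values once the barcodes were limited to those led by intermediate markers. Over 15 melanin and melanocyte genes the median was 0.71 ± 0.29, with 6 genes 2-fold higher in cells (40%, beside 18.4% of all genes). Among intermediate-led barcodes, however, the median was −0.17 ± 0.20. These barcodes were chosen with Dct, Tyr, Slc45a2 and other markers, so the levels of those genes within them are a description. Dct, an enzyme of melanin synthesis, stood at 24096, 19485 and 16683 CPM in cells and 10222 CPM in nuclei (0.96 ± 0.27), and differed by −0.06 ± 0.22 among intermediate-led barcodes. Tyr, the first enzyme of the pathway and a gene of 68.7 kb, differed by −0.39 ± 0.23 overall and by −1.49 ± 0.24 among them. Ednrb, the endothelin receptor of melanocytes and no marker here, differed by 2.23 ± 0.06 overall and by 1.24 ± 0.01 among them.

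Among genes without shared bases or sequence, those far higher in cells had varied products. Glul, the glutamine synthetase gene, stood at 2702, 2515 and 2624 CPM in cells and 339 CPM in nuclei (2.94 ± 0.05). Ctnnb1, which encodes beta-catenin, stood at 1622, 1480 and 1454 CPM against 226 CPM (2.74 ± 0.08). Fxyd1, a regulator of the sodium pump, stood at 478, 517 and 487 CPM against 60.7 CPM (3.00 ± 0.06). Not every such gene was short, since Mylk, the myosin light chain kinase gene of 257 kb, stood at 126, 123 and 133 CPM in cells and 14.0 CPM in nuclei (95% exact Poisson interval 11.6 to 16.7 CPM, which covers counting error only). It was the single gene above 200 kb without shared bases or sequence at least 4-fold higher in cells in every capture.

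Of the genes farthest on the nucleus side, several were at a few UMIs or 0 in cells. Cdh18, a cadherin gene of 925 kb on chromosome 15, stood at 0.828, 1.45 and 2.58 CPM in cells, 1, 5 and 7 UMIs, and at 3019 CPM in nuclei, a 1864-fold difference. Among intermediate-led barcodes it was at 612 CPM in nuclei and differed by −8.04 ± 0.30. Nkain2, whose product interacts with the sodium pump, was at 0 in all captures and at 498 CPM in nuclei. With a floor of 3 UMIs over the 3 captures together it was at least 1222-fold higher in nuclei. Cacnb2, a calcium channel beta subunit gene of 385 kb, stood at 23.2, 28.2 and 10.7 CPM against 3635 CPM (−7.49 ± 0.70). Fhit, a gene of 1612 kb, stood at 2.49, 2.91 and 2.95 CPM against 342 CPM, and Eya4, a hearing gene of 248 kb, at 0, 1.74 and 2.95 CPM against 270 CPM. Not all such genes were long. Spag5 (20.9 kb) stood at 0, 0 and 1.84 CPM against 754 CPM and Sycp3 (13.7 kb), a meiotic gene, at 0.828, 0.581 and 0.368 CPM against 318 CPM.

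**Figure D5:**
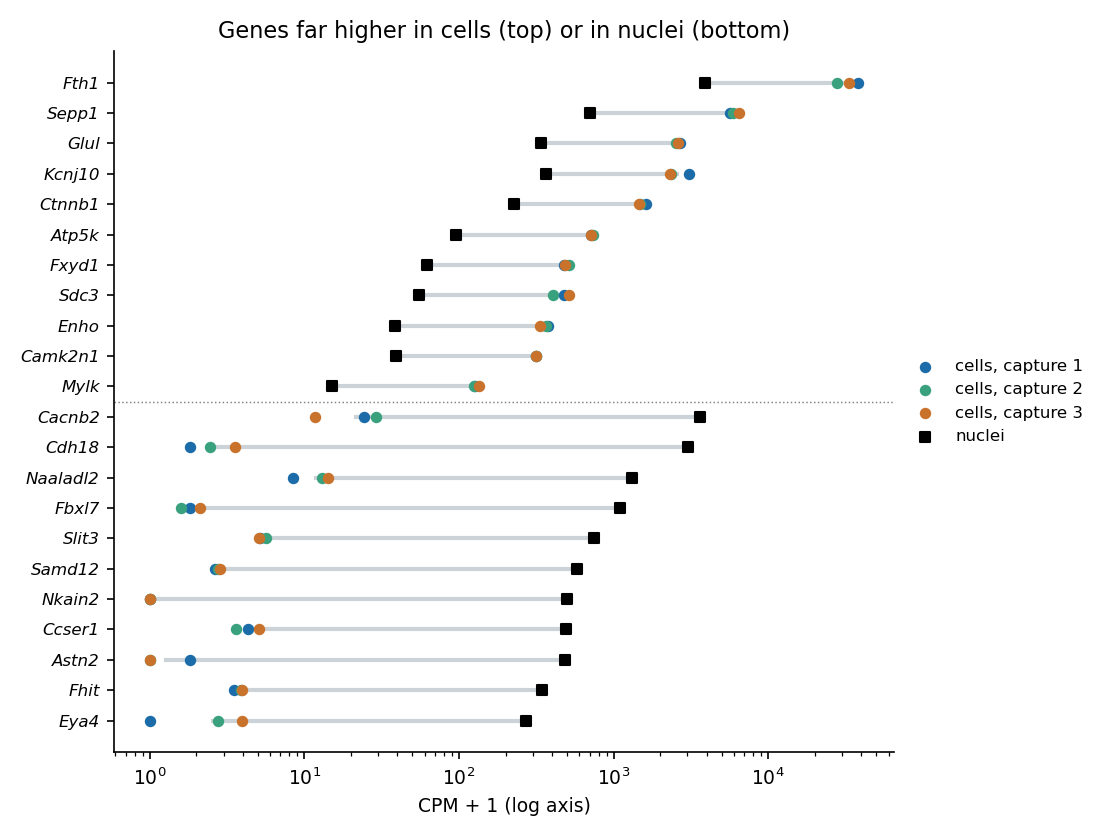
CPM + 1 on a log axis for 11 genes far higher in cells (top) and 11 far higher in nuclei (bottom), none with shared bases or sequence. Coloured points are the 3 captures and black squares the nuclei. The captures of Glul and Camk2n1 nearly coincide, and those of Nkain2 all sit at 1 (0 CPM) against 498 CPM in nuclei.

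Genes known to respond to dissociation were not uniform. Of 14 immediate-early genes 5 were 2-fold higher in cells (35.7%, beside 18.4% of all genes) and 0 in nuclei. Beside the median of their span classes they lay at −0.20. None of the 14 had shared bases or sequence, and beside the genes of their span classes that had none either they lay at −0.03. Jund stood at 475, 461 and 339 CPM in cells and 80.1 CPM in nuclei (2.38 ± 0.27) and Klf4 at 150, 133 and 67.0 CPM against 10.0 CPM (3.33 ± 0.62), while Dusp1 differed by −0.70 ± 0.51 and Nfkbia by −0.37 ± 0.19. Of 11 heat shock genes 9 (81.8%) were 2-fold higher in cells, among them Cryab, with 1339, 1470 and 1240 CPM against 432 CPM (1.64 ± 0.12). These 11 genes are short, with a median span of 9.1 kb, and beside the median of their span classes they lay at 0.89. The 3 genes that the study took as nuclear loading controls did not share a direction. Lmnb1 differed by −0.42 ± 0.74, Pcna by 1.56 ± 0.18 and Tbp by 0.05 ± 0.36, on 101, 107 and 150 nucleus UMIs respectively.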

How the data were processed

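The authors deposited 10x matrices that hold unnormalized UMI counts, 3 from the cell captures and 1 from the nuclei. Per the submitters' processing notes they were made with Cell Ranger 2.0.0 on mm10, and the study's methods name default settings with the mm10 reference that 10x provides. One reference cannot have given both gene lists, 27998 entries for cells and 48816 for nuclei. Which annotation the nuclei had, and whether introns were counted, are not given in the sources used here.

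Counts of barcodes with at least 200 genes and Malat1 at 1% (cells) or 5% (nuclei) of UMIs were summed per library. Genes were matched by identifier without version (27873 in both lists), 13 genes with mt- symbols were left out, and CPM was computed over the rest. A barcode was led by a type when its markers made up at least 0.5% of UMIs and at least 2 times those of any other type. Doublets were not removed. Genes with a mean of at least 10 CPM entered. Differences used a pseudocount of 1 CPM and a 4-fold limit in every capture. With 1 nucleus library no test was run. Spans, exons and gene types came from GENCODE release 21 for mouse (GRCm38). Python 3.11.15, numpy 2.4.6, pandas 2.3.3 and scipy 1.17.1 were used, with edgeR 4.0.16 in R 4.3.3 for an alternative scaling only. The counting of calls was tested on simulated data.

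The genes named were, by rule, the 12 with the largest differences in each direction at a mean of at least 50 CPM (without symbols of Gm or Rik form), up to 4 of the most abundant members of each list, up to 3 of each span class, 3 loading controls and all cell type markers. The 20 farthest without shared sequence, and other list members, Gnb2, Fgfr2, Tsix and the Y-linked genes, were added after their values were seen. Some genes that the rule names are not reported here. The comparison, gene lists and members were chosen with earlier results of these data known. Alternatives changed the totals, pseudocount, filters, barcodes, gene sets, makeup and measure of length.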

Additional observations from a re-analysis of the deposited data

Results flagged for a closer look

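A signal lies in data that the comparison does not use. Genes listed only for the nuclei took 246399 UMIs in the kept nucleus barcodes, leaving out 2 UMIs on spike-in entries. They were 2.54% of all UMIs of these barcodes, spread over 3040 detected genes. Processed pseudogenes held 95754 of them, and the 259 entries whose symbols name them as copies of ribosomal protein genes held 29653. The highest entries were mt-Rnr2, the large mitochondrial ribosomal RNA, with 24408 UMIs, Mir99ahg with 14113 and Gm4149 with 4578. Genes listed only for the cells, 125 in number, took 282, 846 and 649 UMIs in captures 1 to 3.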

How the results depend on the processing

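No difference could be tested, and 1 nucleus library gives no measure of its own spread. No paired analysis was possible because the cells and nuclei share only the replicate number 1. The main values were 462 genes 4-fold higher in cells and 1013 in nuclei, medians of 3.83 (cytosolic ribosomal proteins), 1.15 (respiratory chain), −1.84 (nuclear long noncoding RNAs) and −1.92 (adhesion), and a span difference of −2.65 (over 100 kb minus under 10 kb). None of these medians changed direction under any alternative run. Without each capture in turn the counts were 490 to 508 and 1079 to 1090, and the medians 3.80 to 3.86, 1.12 to 1.21, −1.96 to −1.66, −1.93 to −1.91 and −2.66 to −2.63. The values below moved by more than the spread over captures, and the causes were not tested.

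Without Malat1 in the total, ribosomal proteins were at 3.61, the respiratory chain at 0.94, long noncoding RNAs at −2.83 and adhesion at −2.14. With mt- genes in the total, 270 genes were higher in cells, and the medians were 3.41, 0.74, −2.19 and −2.36 in the same order. Centring on the median gene put adhesion at −1.89. With a pseudocount of 0.1 CPM span was −2.72 and adhesion −1.97, and with 5 CPM they were −2.35 and −1.48, ribosomal proteins 3.74 and long noncoding RNAs −1.47. At a mean of at least 1 CPM 1797 genes were higher in nuclei, span was −2.50, long noncoding RNAs −1.07 and adhesion −1.72, and with no filter beyond 1 UMI these were 1797, −1.76, −0.47 and −1.31. At a mean of 50 CPM the counts were 276 and 457, span −3.05 and adhesion −1.97. With at least 10 CPM on both sides, chosen after seeing the data, they were 234 and 379, span −2.12, ribosomal proteins 3.37, long noncoding RNAs −0.34 and adhesion −0.62. A 2-fold limit gave 1775 and 2161 genes and an 8-fold limit 229 and 525.

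With all deposited barcodes the counts were 247 and 661, span −1.99, ribosomal proteins 3.01, the respiratory chain 0.56 and adhesion −1.42. With Malat1 at 1% in nuclei too, these 4 medians were −2.44, 3.20, 0.93 and −1.66. With 5% in cells too, span was −2.83, ribosomal proteins 3.76, long noncoding RNAs −1.33 and adhesion −2.07. Without hemoglobin adhesion was −1.94, and with barcodes weighted alike span was −2.83 and adhesion −2.17. Among intermediate-led barcodes span was −2.50, ribosomal proteins 3.70, long noncoding RNAs −1.24 and adhesion −1.54. Leaving out genes with shared bases or sequence there, chosen after seeing the data, gave 123 genes higher in cells, −2.40, 2.27, −1.24 and −1.42. Among marginal-led barcodes, only 17 of them cells, span was −3.71, ribosomal proteins 3.96, the respiratory chain 2.08, long noncoding RNAs −3.96 and adhesion −3.38. There 5 of the genes reported here turned from cells to nuclei: Camk2n1 (−1.43), Glul (−0.28), Sdc3 (−2.41), Atp1b1 (−0.21) and Gjb2 (−2.18). Over genes within 2-fold between marginal- and intermediate-led nuclei, 558 were higher in nuclei, span was −2.50, ribosomal proteins 3.65 and long noncoding RNAs −1.03. Without genes of shared bases or sequence, chosen after seeing the data, 186 were higher in cells, span was −2.52, ribosomal proteins 2.28, the respiratory chain 1.04 and adhesion −1.77, and these 5 values stayed so without genes that hold another gene's end as well (also chosen after seeing the data). Other measures of length in place of span gave −1.73 (exons), −2.28 (protein) and, chosen after seeing the data, −3.03 (introns). At this depth 3 UMIs are 0.342 CPM in nuclei and 0.872 to 2.49 CPM in a capture.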
